A study of Mus musculus with 3 samples.

Results

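Mitochondrial ribosomal protein genes encode, in the nucleus, the proteins of the ribosome that works inside mitochondria. They were taken as all protein-coding genes of the RefSeq table for mouse build GRCm38.p6 (mm10) whose symbol starts with Mrpl or Mrps followed by a digit. The rule used no measured value and found 78 of 21887 protein-coding genes, of which 49 have an Mrpl symbol (large subunit) and 29 an Mrps symbol (small subunit). The data are lists of peaks of H3K27ac, the acetylation of histone H3 at lysine 27, from 2 samples of double-negative thymocytes sorted from wild-type C57BL/6J mice aged 5 to 7 weeks. The cells lack CD4 and CD8, carry CD25 and vary in CD44, and were sorted without culture or treatment. No other genotype or treatment is compared here, and the 1 input sample was not analysed here. Nothing in the labels says whether the 2 replicates came from separate animals or sorts, so a difference between them may be technical.

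The mitochondrial ribosome translates the few proteins that mitochondrial DNA encodes, most of them core parts of the respiratory chain. Its large subunit joins amino acids into a chain and its small subunit reads the messenger RNA. Its proteins are made in the cytosol and imported, so their genes are ordinary nuclear genes, mostly with promoters rich in CpG and active in nearly all cell types. H3K27ac marks the chromatin around active promoters and enhancers. Symbols do not always match position in the ribosome: in the mammalian structure the products of Mrps30 and Mrps18a sit in the large subunit, and the product of Mrps36 is now assigned to a metabolic enzyme complex.

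The lists held 12377 peaks in replicate 1 and 9477 in replicate 2 on the assembled chromosomes, with median widths of 615 and 561 bp and median fold enrichments of 2.17 and 2.31. Of the marker genes of double-negative T cells, Cd3d, Cd3e, Cd3g and Tcf7 had a peak within 1 kb of a gene end in both replicates, Il2ra and Ptcra in 1 replicate, and Notch1 and Lck in neither. None of the 12 markers of B cells, myeloid cells, erythroid cells and thymic stroma had such a peak in either replicate. Among all protein-coding genes 16.8% had such a peak in both replicates, and 69.5% had none in either. The double-negative marker peaks were low in fold but wide. The widest at each gene had median folds of 1.23 and 1.20, against 2.16 and 2.33 over all genes with such a peak. Their median widths were 1954 and 1781 bp, against 797 and 702.5 bp. Peaks with a q-value of 0.05 or less in both replicates were found at 3 of the 8 marker genes (37.5%, against 2.64% of all genes). At 3 of the 4 marker genes with a peak in both replicates, the peaks overlapped. A q-value of 0.05 or less was reached by 27.1% of peaks in replicate 1 and 41.0% in replicate 2. On chromosomes 6, 9, 14 and 17 a given fold can come with other p-values than elsewhere, though not at every peak, and 21 of the 78 genes lie there. Folds and −log10 q-values, the larger the stronger, are the authors' own values for each peak. The lists hold no read counts, so the depth is unknown and no peak has a counting interval. A gene without a peak is a gene where none was listed, which does not show that the mark was absent.

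The promoters that follow were chosen because the peaks of both replicates reached them: they are the 2 of each subunit with the most bp covered by both replicates among such promoters. Each runs from 250 bases before to 50 after the transcription start in RefSeq (GRCm38.p6), 5′ to 3′ on the strand of the gene. Capitals mark exact matches, on either strand, to short motifs of ETS factors, NRF1, YY1, SP1, the CCAAT box and the TATA box, which are spelled out further on. The Mrpl32 promoter is chr13:14612988-14613287 (minus strand), that of Mrpl41 is chr2:24975049-24975348 (minus), that of Mrps12 is chr7:28741772-28742071 (minus) and that of Mrps30 is chr13:118387203-118387502 (minus).
Mrpl32: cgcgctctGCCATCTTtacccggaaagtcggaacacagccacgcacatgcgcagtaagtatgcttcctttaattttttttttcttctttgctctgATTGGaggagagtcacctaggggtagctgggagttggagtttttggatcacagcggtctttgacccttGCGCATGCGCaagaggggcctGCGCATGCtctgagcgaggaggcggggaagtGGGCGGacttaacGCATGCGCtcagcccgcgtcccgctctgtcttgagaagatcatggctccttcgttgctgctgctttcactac
Mrpl41: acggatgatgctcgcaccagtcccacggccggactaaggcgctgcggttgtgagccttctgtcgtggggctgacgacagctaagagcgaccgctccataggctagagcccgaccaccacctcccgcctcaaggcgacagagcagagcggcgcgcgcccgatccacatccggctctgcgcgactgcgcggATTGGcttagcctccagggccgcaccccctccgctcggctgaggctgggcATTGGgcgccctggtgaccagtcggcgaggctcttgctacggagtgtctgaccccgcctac
Mrps12: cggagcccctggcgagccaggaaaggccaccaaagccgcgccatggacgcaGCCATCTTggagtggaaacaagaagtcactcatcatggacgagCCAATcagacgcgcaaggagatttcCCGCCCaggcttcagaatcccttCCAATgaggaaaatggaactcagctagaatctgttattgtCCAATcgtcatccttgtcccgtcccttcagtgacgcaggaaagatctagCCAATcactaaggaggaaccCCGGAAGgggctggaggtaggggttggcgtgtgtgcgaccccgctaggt
Mrps30: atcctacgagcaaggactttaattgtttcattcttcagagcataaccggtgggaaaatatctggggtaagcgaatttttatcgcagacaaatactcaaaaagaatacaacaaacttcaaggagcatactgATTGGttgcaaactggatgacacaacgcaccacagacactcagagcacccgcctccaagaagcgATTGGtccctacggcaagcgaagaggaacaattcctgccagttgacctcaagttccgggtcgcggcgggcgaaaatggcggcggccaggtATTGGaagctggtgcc
All 300 bases of the Mrpl32 and Mrpl41 promoters lay under the peaks of both replicates. Of the Mrps12 promoter 300 bases lay under the replicate 1 peak and 140 under that of replicate 2, and of the Mrps30 promoter 294 and 148.

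Of the mitochondrial ribosomal protein genes, 25.6% had a gene-end peak in both replicates. A gene-end peak is one that overlaps the 1 kb on either side of an annotated end of the gene. Replicate 1 had one at 30 of 78 genes (38.5%, against 25.1% of all protein-coding genes), and replicate 2 at 31 (39.7%, against 22.2%). Both replicates had one at 20 genes (against 16.8% of all), and at least 1 replicate at 41 (52.6%, against 30.5%). The remaining 37 genes (47.4%, against 69.5%) had none. They are 21 genes of the large subunit, Mrpl3, Mrpl4, Mrpl10, Mrpl11, Mrpl13, Mrpl14, Mrpl16, Mrpl19, Mrpl20, Mrpl22, Mrpl23, Mrpl24, Mrpl33, Mrpl34, Mrpl35, Mrpl37, Mrpl39, Mrpl43, Mrpl45, Mrpl52 and Mrpl55, and 16 of the small subunit, Mrps2, Mrps5, Mrps9, Mrps10, Mrps17, Mrps18a, Mrps18c, Mrps21, Mrps22, Mrps23, Mrps25, Mrps26, Mrps31, Mrps33, Mrps35 and Mrps36. At 19 of the 20 genes the peaks of the replicates overlapped, which is near the share of all genes with a peak in both (96.4%). No chance test was made for these shares.

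**Figure D1:**
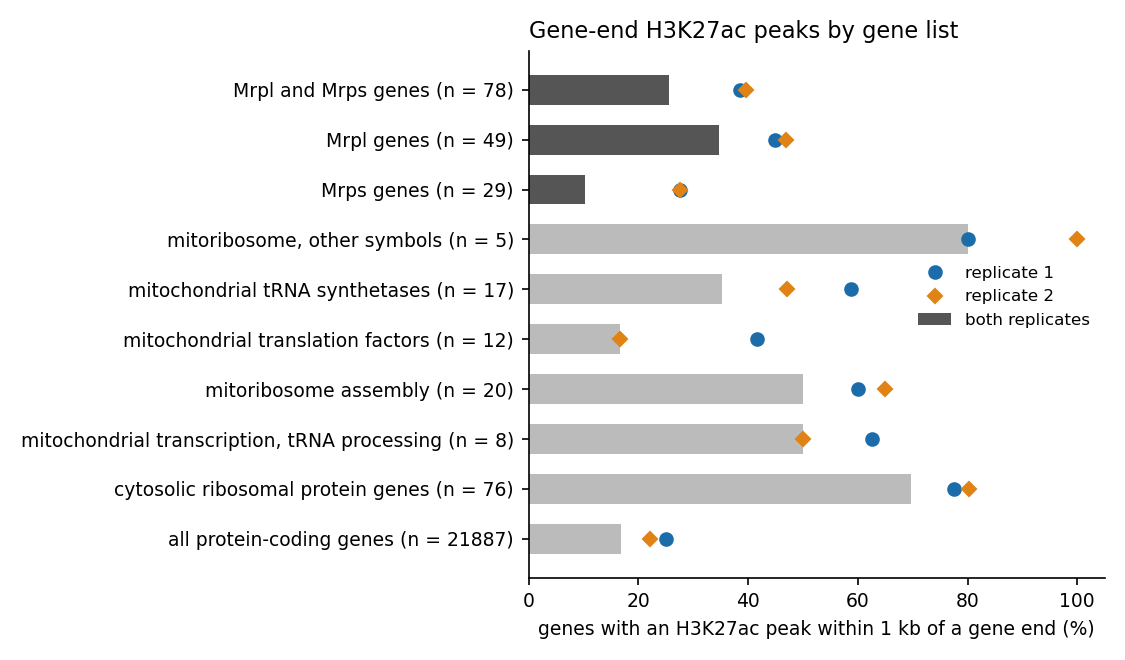
Share of genes with an H3K27ac peak within 1 kb of a gene end (x axis, %) for each gene list (y axis, number of genes in brackets). Bars give the share with a peak in both replicates, circles that in replicate 1 and diamonds that in replicate 2; the Mrpl and Mrps genes stand at 25.6% for both, against 16.8% for all protein-coding genes at the bottom.

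The large subunit carried most of these peaks. Of the Mrpl genes 17 of 49 (34.7%) had a gene-end peak in both replicates, and of the Mrps genes 3 of 29 (10.3%). In replicate 1 the counts were 22 (44.9%) and 8 (27.6%), and in replicate 2 they were 23 (46.9%) and 8 (27.6%). The share of Mrps genes in each replicate was thus above that of all genes (25.1% and 22.2%), and the share in both was below it (16.8%). With 3 Mrps genes, the gap rests on few genes and on the ends that the annotation gives. Around the transcription starts listed by RefSeq, which 69 of the 78 genes have, 14 of 43 Mrpl genes (32.6%) and 5 of 26 Mrps genes (19.2%) had a peak in both replicates, against 18.2% of all genes with a listed start. The Mrps share was thus not below that of all genes at the starts. By position in the mammalian ribosome, an alternative chosen after seeing the data, the counts were 18 of 51 (35.3%) for the large subunit and 2 of 26 (7.69%) for the small.

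Mrps2 and Mrps23 account for the extra Mrps genes at the listed starts. The Mrps2 start (chromosome 2, 28468066) lies 2115 bp inside the annotated gene, and its peaks ran from 53 to 330 bp after that start in replicate 1 and from 242 to 470 bp in replicate 2, with folds of 2.82 and 2.10. At Mrps23 (chromosome 11, start at 88204388, 7119 bp from the nearest gene end) the peaks covered the start, from -416 to 758 bp and from -395 to 214 bp, with folds of 1.95 and 3.82. Neither had a coding neighbour at these peaks. Around listed starts as a whole, 19 of 69 genes had a peak in both replicates (27.5%, against 18.2% of 17492 coding genes with a listed start). Around the annotated downstream end of the gene, Mrpl36 and Mrpl58 had such peaks (2.90%, against 1.33%). At Mrpl36 these are the same peaks as at its listed start, which lies within 2 kb of that end.

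Peaks at the starts lay on both sides of them. Among peaks with a centre within 2 kb of the first listed start, the median centre was 13.5 bp after it in replicate 1 (27 peaks) and 35.5 bp after it in replicate 2 (26 peaks). Of all gene-end peaks of genes with a listed start, the start lay under 13 of 30 in replicate 1 and 15 of 28 in replicate 2. Of the peaks with an edge within 2 kb that did not cover the start, 8 lay upstream and 7 downstream in replicate 1, and 6 and 6 in replicate 2. These counts include the boundary peak of Mrpl36, whose centre is farther than 2 kb from the start.

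**Figure D2:**
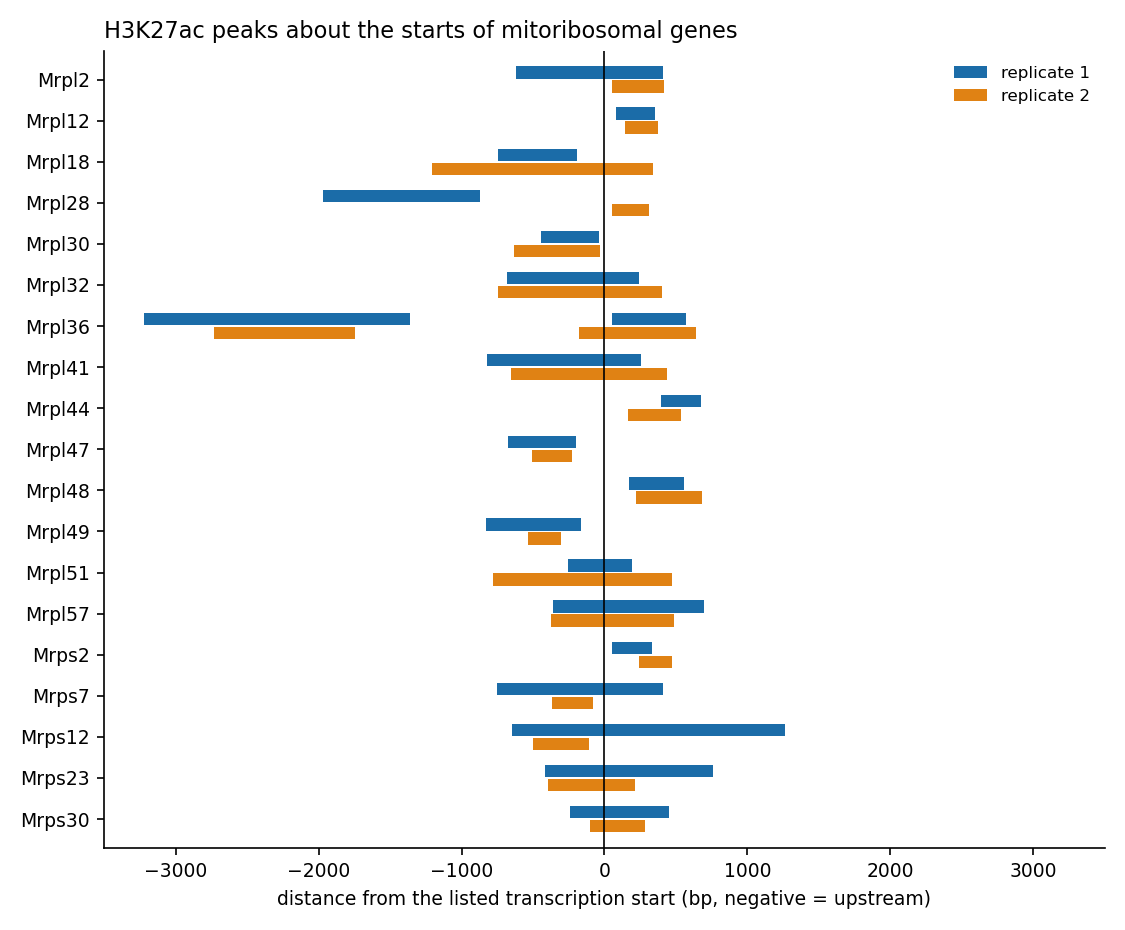
Peaks of replicate 1 (upper bar) and replicate 2 (lower bar) drawn to scale as distance in bp from the listed transcription start (x axis, negative values upstream) for the 17 genes with a listed start and a gene-end peak in both replicates, without Mrpl58, whose shared peak lies at its far end, and for Mrps2 and Mrps23. Most bars cross or flank the start; the bars of Mrpl28 are apart, and Mrpl36 has a second pair upstream, at its boundary with Ndufs6.

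At annotated gene ends, the peaks of both replicates mostly sat where a mitochondrial ribosomal protein gene meets another coding gene. At 18 of the 20 genes (90.0%) a gene-end peak of each replicate also lay within 1 kb of an end of the same second protein-coding gene, against 35.8% of all genes with a gene-end peak in both replicates. Around listed starts alone this held for 15 of 19 genes (78.9%). With gene ends or starts together, an alternative chosen after seeing the data, it held for 18 of 22 (81.8%). The 35.8% of all genes is for gene ends, and no share over all genes is given for either of these other settings. Such neighbours were common here with or without peaks: an end of another coding gene lay within 1 kb of an end of 44 of the 78 genes (56.4%, against 24.8% of all genes). Among these 44 genes, 18 had a peak in both replicates (40.9%, against 29.9% of all genes with such a neighbour). Among the 34 genes without a neighbour 2 did (5.88%, against 12.5%). For Mrpl genes the counts were 16 of 30 with a neighbour and 1 of 19 without, and for Mrps genes 2 of 14 and 1 of 15. A gene with a neighbour can be reached by the neighbour's acetylation as well as by its own, and the peak lists cannot tell these apart.

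**Figure D3:**
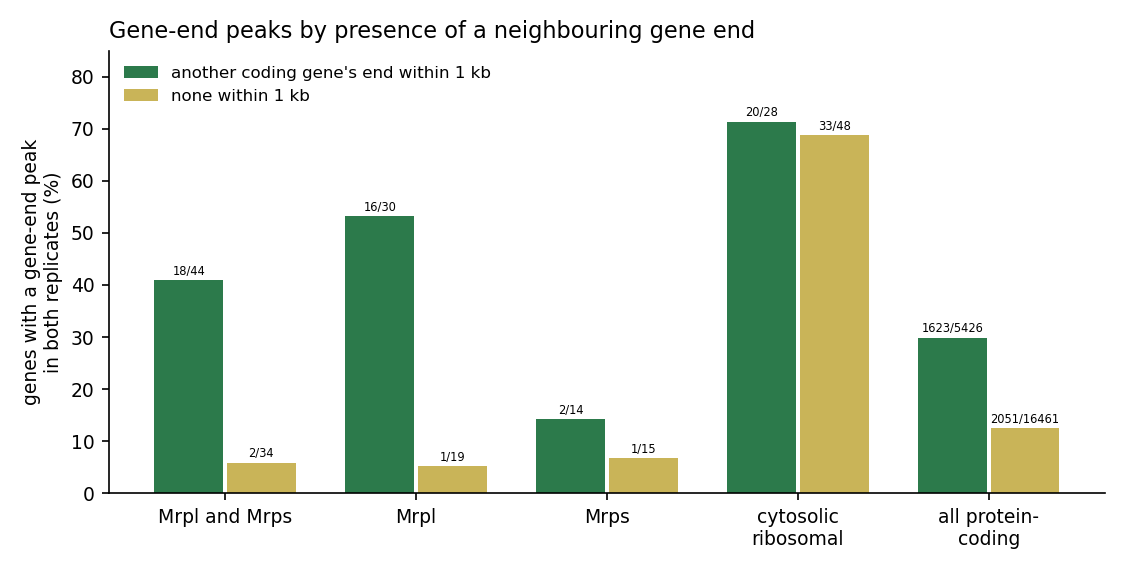
Share of genes with a gene-end peak in both replicates (y axis, %) among genes with another coding gene's end within 1 kb of an end of theirs (green) and among genes without (yellow), for 5 lists, with counts above the bars. The 2 bars of the Mrpl and Mrps genes stand at 40.9% and 5.88%, against 29.9% and 12.5% for all protein-coding genes; the cytosolic ribosomal protein genes are at 71.4% and 68.8%.

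Many of these neighbours start close by on the opposite strand, and such a gene is said below to be faced. The count does not ask whether the 2 genes overlap. Mrpl2, Mrpl18, Mrpl48, Mrpl57 and Mrps7 overlap the gene they face. Of the 69 genes with a listed start, 25 (36.2%) had a coding gene on the opposite strand that starts within 1 kb, against 9.61% of all genes with a listed start, at a median distance of 131 bp against 159 bp. Of these 25 genes, 12 (48.0%) had a peak in both replicates around the start, against 45.9% of all genes with such a partner. Of the 44 genes without a partner, 7 (15.9%) had one, against 15.2%. Within each of these classes the share was thus close to that of all genes.

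The centre of the shared peak was nearer to an end of the second gene than to one of the mitochondrial ribosomal protein gene at 10 of 18 genes in replicate 1 and 13 of 18 in replicate 2. The peak covered an annotated end of the mitochondrial ribosomal protein gene in 9 and 6 cases, an end of the neighbour in 11 and 9, and both in 8 and 5. No share over all genes is set beside these counts. The distances to the ends of the 2 genes could be nearly equal, as at Mrpl48 in replicate 1 (363.5 and 362.5 bp) and Mrpl54 in replicate 2 (525 and 516 bp). Mrpl28 is counted here although its peaks in the replicates do not overlap.

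Some of the 18 neighbours also serve mitochondria or protein synthesis. Mrps12 (chromosome 7), whose product lies at the decoding centre, faces Sars2, the mitochondrial seryl-tRNA synthetase, with starts 147 bp apart. The peak there was 1911 bp wide with a fold of 2.06 in replicate 1 and 393 bp wide with a fold of 4.25 in replicate 2, the highest fold among the 78 genes. Mrpl47 (chromosome 3) faces Ndufb5, a subunit of respiratory complex I, at 308 bp, and its peaks were 475 and 279 bp wide with folds of 2.37 and 2.40. Both centres were nearer to Ndufb5. Mrpl49 (chromosome 19) faces Fau, which encodes a cytosolic ribosomal protein fused to a ubiquitin-like protein, at 192 bp. Its peaks had widths of 666 and 229 bp, folds of 2.94 and 2.15 and −log10 q of 1.93 and 1.42. Mrpl36 (chromosome 13) lies 21 bp from Ndufs6, another complex I gene, and had the most bp covered by both replicates (1388). It had separate peaks at this boundary (1862 bp and a fold of 1.94 in replicate 1, 984 bp and 3.65 in replicate 2) and around its listed start (522 bp and 1.93, 817 bp and 3.62). Replicate 2 was the taller at each site of Mrpl36.

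Others take part in protein turnover, protein folding and cell division. Mrpl32 (chromosome 13) faces Psma2, a subunit of the proteasome, at 205 bp, and its peaks were 928 and 1144 bp wide with folds of 2.30 and 2.66. All 928 bp of the replicate 1 peak were shared. Mrpl18 (chromosome 17) faces Tcp1, a subunit of the chaperonin that folds actin and tubulin, at 238 bp. Its peaks were 552 and 1550 bp wide with folds of 2.55 and 2.41, and both centres were nearer to Tcp1. Mrpl51 (chromosome 6) faces Ncapd2, a subunit of condensin, at 614 bp, with peaks of 455 and 1251 bp, folds of 2.37 and 3.09 and −log10 q of 1.35 and 5.10. Mrpl57 (chromosome 14) faces Ska3, which helps attach chromosomes to the spindle, at 76 bp, with peaks of 1056 and 865 bp that shared 847 bp and had folds of 2.47 and 2.21. At each of these 4 pairs the folds of the replicates differed by less than 1.

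The other neighbours had varied roles. Mrpl48 (chromosome 7) faces Rab6a, a GTPase of Golgi transport, at 36 bp, with peaks of 390 and 459 bp and folds of 1.44 and 3.08. Mrps7 (chromosome 11) faces Gga3, a Golgi adaptor, at 224 bp, with peaks of 1168 and 283 bp and folds of 2.29 and 2.12. Replicate 2 was thus the taller at Mrpl48 and the narrower at Mrps7. Mrpl41 (chromosome 2) faces Pnpla7, a lysophospholipase, at 935 bp. Its peaks of 1082 and 1096 bp, with folds of 2.45 and 2.28, covered the end of Mrpl41 and not that of Pnpla7. Mrpl2 (chromosome 17), whose product lies at the peptidyl transferase centre, faces Klc4, a kinesin light chain, at 141 bp, with peaks of 1027 and 370 bp and folds of 2.38 and 2.63. Mrpl30 (chromosome 1) faces Mitd1, a factor of cell division, at 66 bp, with peaks of 409 and 607 bp and folds of 2.53 and 2.10. Both peaks of Mrpl30 lay nearer to Mitd1. Mrpl12 (chromosome 11), which encodes the stalk protein, lies 653 bp from Hgs, an endosomal sorting gene on the same strand. Its peaks were narrow (278 and 235 bp) and low (folds of 1.62 and 1.83), and nearer to Mrpl12. Mrpl44 (chromosome 1) overlaps Wdfy1 and had peaks of 278 and 374 bp with folds of 1.88 and 2.30, both nearer to an end of Wdfy1. Mrpl54 and Apba3 (chromosome 10) lie 9 bp apart under peaks of 1210 and 1909 bp with folds of 2.47 and 3.40. At Mrpl38 (chromosome 11) the peaks (2886 and 1931 bp, folds of 2.36 and 2.65, that of replicate 1 the widest gene-end peak of the 78 genes) lay inside Trim65 or across its end.

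Mrpl28 was the exception to overlap. Relative to the start its replicate 1 peak ran from -1967 to -871 bp and that of replicate 2 from 50 to 314 bp, each within 1 kb of an end of Pgap6. Their folds of 1.14 and 1.36 were low and their −log10 q of 5.08 and 3.28 high, on chromosome 17. Leaving out chromosomes 6, 9, 14 and 17, a peak in both replicates was found at 15 of 57 genes (26.3%, against 16.9% of all genes there).

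The 2 genes whose shared peak touched no other coding gene were Mrps30 and Mrpl58. Mrps30 (chromosome 13) had peaks of 695 and 381 bp across its own start, with folds of 2.11 and 2.34. Mrpl58 encodes a hydrolase that frees chains from stalled mitochondrial ribosomes and has become a part of the ribosome. Its shared peak (chromosome 11, 115412909 to 115414358 in replicate 1 and 115413125 to 115413642 in replicate 2) lay past its far end, over annotated tRNA genes: n-TRcct5, n-TRcct3 and n-TRtcg4 under the replicate 1 peak and n-TRcct3 under that of replicate 2. Its folds were 2.15 and 1.80. Near the Mrpl58 start replicate 1 alone had a peak, of 316 bp. Of the 34 genes without a coding neighbour at their ends, Mrps30 was thus the only one with peaks of both replicates at an annotated end where it starts.

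Replicate 1 alone had a gene-end peak at 10 of the 78 genes, against 8.32% of all coding genes: Mrpl1, Mrpl40, Mrpl42, Mrpl46, Mrpl53, Mrps6, Mrps11, Mrps16, Mrps24 and Mrps34. Replicate 2 alone had one at 11 of the 78, against 5.44% of all coding genes: Mrpl9, Mrpl15, Mrpl17, Mrpl21, Mrpl27, Mrpl50, Mrps14, Mrps15, Mrps18b, Mrps27 and Mrps28. The tallest of the first set was at Mrpl53 (501 bp, a fold of 3.27) and of the second at Mrpl27 (266 bp, 3.07), both named after their values were seen. The widest was that of Mrps18b beside Ppp1r10 (2779 bp, a fold of 2.64). The head-to-head pair Mrpl46 and Mrps11, with starts 42 bp apart, has the only peak that 2 of the 78 genes share. That peak of 388 bp with a fold of 2.46 was in replicate 1 alone, and the pair counts as 2 genes in replicate 1. In replicate 1 alone, 7 of 10 genes had a coding neighbour at the peak (70.0%, against 29.9% of all genes with a peak in replicate 1 alone), among them Mrpl40 beside Hira, a histone chaperone gene, and Mrpl53 beside Ccdc142. In replicate 2 alone, 5 of 11 did (45.5%, against 27.8%), among them Mrpl27 beside Eme1 and Mrps27 beside Ptcd2, an RNA-binding protein of mitochondria. Mrpl43 and Twnk, the helicase of mitochondrial DNA, start 116 bp apart on opposite strands and neither list has a peak at an end of Mrpl43. Near the 1 kb limit, the nearest peak of Mrpl18 in replicate 1 was 951 bp and that of Mrpl28 871 bp from an end, just inside, and those of Mrps18b in replicate 1 (1253 bp) and Mrpl20 in replicate 2 (1307 bp) were just outside.

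Widths had a lower median than over all genes in replicate 2, while in replicate 1 the order depended on the processing, and folds were close to those of all genes. Taking the widest gene-end peak of each gene, the median width was 680.5 bp in replicate 1 (30 genes, 278 to 2886 bp) and 478 bp in replicate 2 (31 genes, 229 to 2779 bp), against 797 and 702.5 bp over all genes with such a peak. In replicate 1 the order turned without chromosomes 6, 9, 14 and 17 (804 bp, against 797 bp), with gene ends or transcription starts together (804 against 803 bp) and with the 10000 peaks of smallest p (913 against 832 bp). In replicate 2 it turned at a q-value of at most 1e-05, where 1 gene was left (1251 against 746.5 bp). The median fold of these peaks was 2.29 and 2.34, against 2.16 and 2.33. Peaks of both replicates covered a median of 369.5 bp within 1 kb of the ends of the 20 genes, against 491.5 bp over all 3674 genes with a peak in both. By subunit, the median width was 609 bp for Mrpl and 804 bp for Mrps genes in replicate 1, and 478 and 510 bp in replicate 2. The ranges of the subunits overlapped in both replicates.

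Widths agreed between replicates only roughly. Of the 20 genes, 12 had widths within a factor of 2 of each other, 12 had the wider peak in replicate 1, and 13 had the higher fold in replicate 2. These counts are not given over all genes. The whole lists differed in the same directions, with median widths of 615 and 561 bp and median folds of 2.17 and 2.31. The 5 genes with the highest lower fold of the 2 replicates were Mrpl54, Mrpl18, Mrpl2, Mrpl47 and Mrpl51, whose lower folds were all between 2.37 and 2.47. Peaks with a q-value of at most 0.05 in both replicates were found at 4 of the 78 genes (5.13%, against 2.64% of all genes): Mrpl18 (−log10 q of 1.36 and 1.38), Mrpl28, Mrpl49 and Mrpl51. Mrpl49 on chromosome 19 is the only one of these outside chromosomes 6 and 17, where the relation of fold to p can differ.

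**Figure D4:**
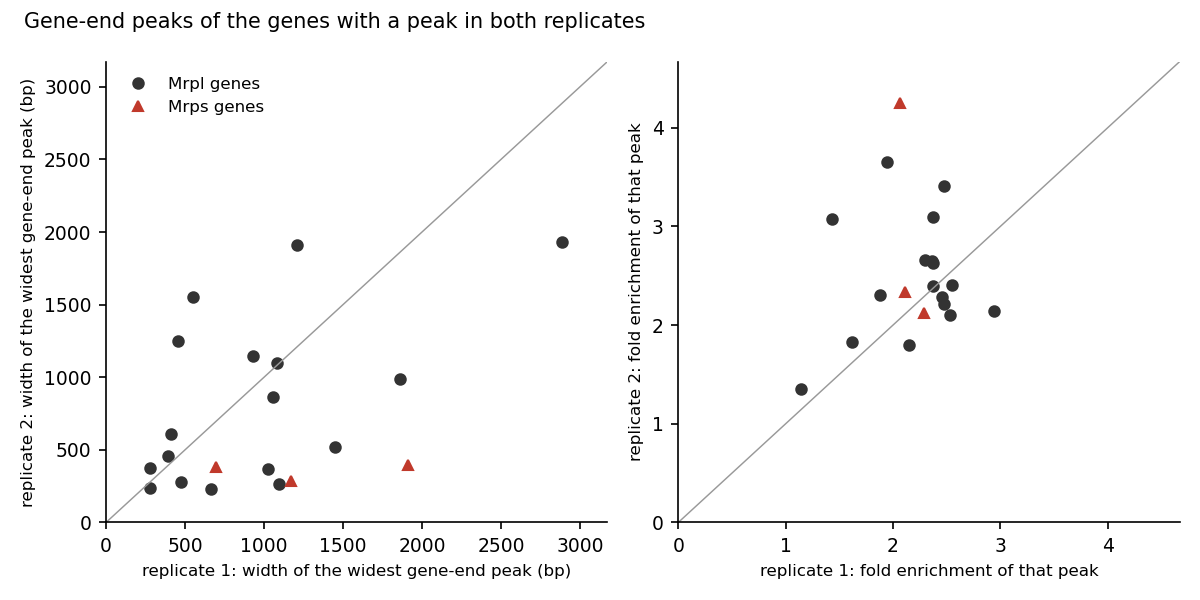
Each point is one of the 20 genes with a gene-end peak in both replicates (circles Mrpl, triangles Mrps), by the width in bp of its widest gene-end peak (left panel) and the fold enrichment of that peak (right panel), in replicate 1 (x axes) and replicate 2 (y axes), with the line of equality. Widths scatter widely about the line, and 13 genes lie above it in fold, with Mrps12 the highest at 4.25 in replicate 2.

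Promoters were compared as sequence, on the first listed start of 69 of the 78 genes. The observed over expected number of CpG was 0.82 (median), against 0.58 over 17492 coding genes, and the GC share was 58.3% against 56.3%. Exact matches on either strand to CCGGAAG, the core bound by ETS factors, were found in 36.2% of the promoters, against 11.9% of all. Matches to AAGATGGC (YY1) were found in 17.4%, against 3.22%, and to GCATGCGC (NRF1, a regulator of many genes for mitochondria) in 11.6%, against 3.61%. In 56 promoters of cytosolic ribosomal protein genes the CpG value was 0.89 and ETS matches were in 39.3%, both above the values here. Their YY1 and NRF1 matches were in 7.14% and 3.57%, both below. Of the promoters 5.80% held TATAAA, the core of the classic promoter box of that name, against 13.3%. GGGCGG (SP1) was in 49.3%, against 46.3%, and CCAAT in 39.1%, against 39.0%. None of these motifs contains another, and NRF1 matches can overlap their own reverse complement. A match is a description of the letters and does not show that a factor binds there.

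Among the genes themselves, the counts with gene-end peaks in both replicates are small. The split below is by gene-end peak and not by a peak at the promoter. Mrpl58 thus counts as having a peak, and Mrps2 and Mrps23, with peaks at their listed starts, count among the others. Promoters with an ETS match numbered 5 of 18 among genes with a peak in both replicates (27.8%) and 20 of 51 among the others (39.2%), and for NRF1 they numbered 1 of 18 (5.56%) and 7 of 51 (13.7%). For YY1 they numbered 5 of 18 (27.8%) and 7 of 51 (13.7%). Over all coding genes with a peak in both replicates, the shares were 22.8% for ETS, 6.31% for NRF1 and 6.34% for YY1, each above the share in all promoters. The median CpG ratio was 0.85 with a peak in both and 0.80 without. In the promoters shown above, Mrpl32 has 4 NRF1 matches, of which the first pair overlaps, besides YY1, SP1 and CCAAT matches. Mrps12 has 4 CCAAT matches and YY1, SP1 and ETS matches. Mrps30 has 3 CCAAT matches and Mrpl41 has 2.

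**Figure D5:**
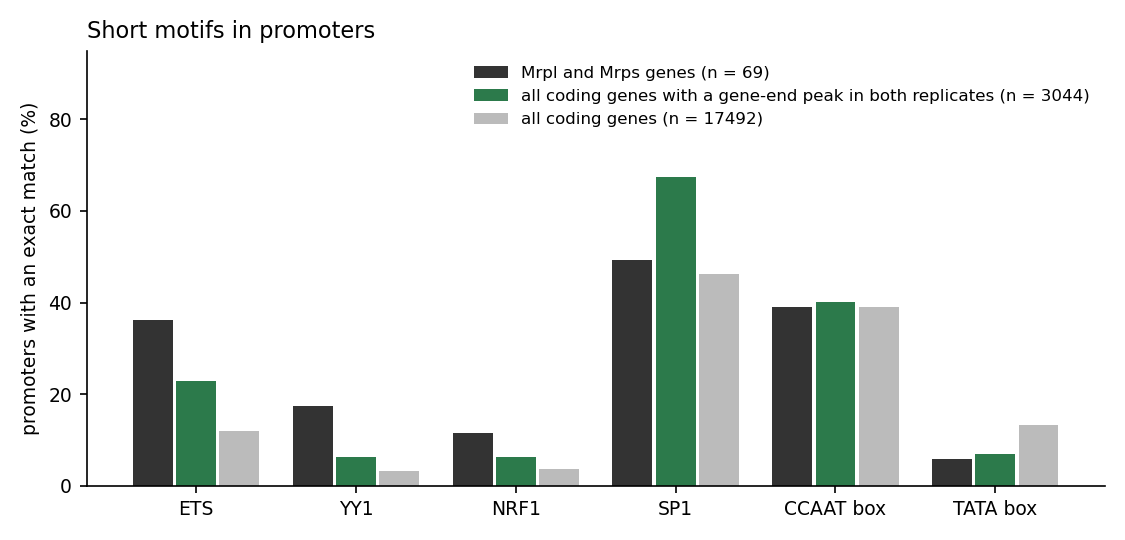
Share of promoters with at least 1 exact match, on either strand, to each short motif (x axis) in percent (y axis), for the Mrpl and Mrps genes (black), all coding genes with a gene-end peak in both replicates (green) and all coding genes (grey). ETS, YY1 and NRF1 matches are at 36.2%, 17.4% and 11.6% in the Mrpl and Mrps genes, against 11.9%, 3.22% and 3.61% in all coding genes.

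Other genes of mitochondrial translation had gene-end peaks in both replicates in 26 of 62 cases (41.9%, against 16.8% of all genes). Of 5 subunits of the mitochondrial ribosome without an Mrp symbol, Dap3, Ptcd3, Chchd1 and Gadd45gip1 had them, with 949, 327, 201 and 408 bp covered by both. The assembly genes stood at 10 of 20. They include the RNA methyltransferases Mrm1, Mrm3, Nsun4 and Tfb1m, the helicases Ddx28 and Dhx30, the GTPase Mtg1, the pseudouridine synthase Rpusd4, and Malsu1 and Mterf3. The tallest of these peaks was that of Mrm1, with a fold of 5.35 in replicate 1 and 2.10 in replicate 2. Transcription and tRNA processing genes stood at 4 of 8 (Tfb2m, Trmt10c, Lrpprc and Slirp). Aminoacyl-tRNA synthetases stood at 6 of 17 (35.3%), namely Ears2, Fars2, Iars2, Nars2, Sars2 and Yars2, where the Fars2 peaks had no bp in common and Sars2 has the same peaks as Mrps12. Translation factors stood at 2 of 12 (16.7%, Gfm2 and Mrrf). A coding neighbour was at the peaks of 15 of these 26 genes (57.7%).

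Cytosolic ribosomal protein genes, which encode the other ribosome of the cell, had a larger share with peaks and a smaller share with neighbours. They had gene-end peaks in both replicates at 53 of 76 genes (69.7%), and a coding neighbour at the peak in 14 of the 53 (26.4%). Their share was similar with and without a neighbour, with 20 of 28 (71.4%) where another coding gene's end lay within 1 kb and 33 of 48 (68.8%) where none did. Their median widths were 746 and 868 bp. These values are set beside those of the mitochondrial genes without a test.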

How the data were processed

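Chromatin of sorted double-negative thymocytes was captured with an antibody against histone H3, given adapters and precipitated for H3K27ac, per the labels' protocols. The submitters' processing notes name Bowtie2, mm10 and MACS 1.4.2; the deposited layout is that of MACS2, so the version is uncertain. Peak names carry a library index and the word rmdup, so the authors called peaks per sample without duplicate reads; whether a control was used, and at which threshold, is not given in the sources used here. Each fold enrichment (a ratio), −log10 p-value, −log10 q-value and score is as the authors deposited it; the score was not used.

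Peaks on assembled chromosomes were joined to RefSeq gene ends of GRCm38.p6 (Python 3.11.15, NumPy 2.4.6; figures with matplotlib 3.10.9), counted from 1, with genes taken once per symbol. Strand and starts came from the RefSeq promoter table, with entries for 69 of the 78 genes; Mrpl4, Mrpl13, Mrpl15, Mrpl19, Mrpl38, Mrpl54, Mrps28, Mrps34 and Mrps35 have none there. The assignment was tested on simulated data. The genes, lists and named genes were chosen with earlier results of these data known, so no list was tested. Named in full were up to 5 genes of each subunit with the most shared bp (only 3 Mrps genes have any), the 5 with the highest lower fold, those with q of at most 0.05 in both replicates, those with a neighbour at the peaks, those without overlap, and the genes of mitochondrial translation with peaks in both. Alternatives changed the window, the ends, the peaks, the overlap, the replicates and the chromosomes.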

Additional observations from a re-analysis of the deposited data

How the results depend on the processing

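The values are counts without a test, and depth, which is unknown, limits all of them. The main counts are 20 of 78 genes with a peak in both replicates, 17 Mrpl, 3 Mrps and 18 with a coding neighbour at the peak, and the median widths are 680.5 and 478 bp. Of 74 alternative values, 45 stayed within 1.5 times the count or within the spread between replicates of the width, and 29 did not. Taking the 10000 peaks of smallest p could not change replicate 2, which has 9477 peaks, and its unchanged width is counted among the 45. Where the peak had to cover the gene end, 7 genes were left (8.97%, against 7.32% of all genes), 6 Mrpl and 1 Mrps, 5 with a neighbour, and the widths were 977.5 and 821.5 bp. With q of at most 0.05 these were 4, 4, 0 and 4, with 501 and 721.5 bp; with q of at most 1e-05 every count was 0 (0.731% of all genes), and the 1 peak left in replicate 2 had 1251 bp. A peak in either replicate gave 41, 28, 13 and 30. Each replicate alone gave 30 to 31 genes, 22 to 23 Mrpl, 8 Mrps and 23 to 25 with a neighbour. The Mrps count was 5 with a window of 2.5 kb, 5 with transcription starts alone, and 5 with gene ends or starts together, an alternative chosen after seeing the data, as was subunit by structure. The 10000 peaks of smallest p gave a width of 913 bp in replicate 1 (832 bp over all genes), and overlapping peaks 928 bp (949 bp). The cause of these shifts was not tested. Without chromosomes 6, 9, 14 and 17, 12 of 37 Mrpl and 3 of 20 Mrps genes had a peak in both, and 13 of 15 had a neighbour. No width is given for either replicate or for leaving a replicate out, since it is already computed per replicate.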

Other observations

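The RefSeq table also holds 6 pseudogenes with such symbols (Mrpl23-ps1, Mrpl27-ps, Mrpl48-ps, Mrps36-ps1, Mrps36-ps2 and Mrps36-ps3), which belong in no comparison above. None of the 6 had a peak within 1 kb of an end in either replicate.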
